A study of Mus musculus with 21 samples.

Results

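Added biglycan was compared with no added protein in mouse peritoneal macrophages that were then stimulated with lipopolysaccharide (LPS). The comparison took 4 of the 21 libraries of the series, chosen by their labels alone: recombinant biglycan followed by LPS and LPS alone, each in cells labelled wild type and in cells labelled Bgn-/- (biglycan knockout, a label that the protocol also uses for Bgn-/0 mice). Each pair was read within its genotype, so there were 2 matched pairs and 1 library per group. All mice were of the C57BL/6 background. Their cells came from the lavage of peritoneal cavities that had not been elicited, were selected for CD11b and rested overnight in medium with charcoal-stripped serum. The medium was then exchanged for serum-free medium. LPS was given at 100 ng/mL for 6 h, and biglycan at 10 µg/mL for 1 h before it. The labels state 10 mice and do not say how their cells were divided over the wells, nor the cell types in which Bgn is deleted. Each group has 1 library, so the p-values below do not measure a spread between mice or between repeated wells. Their spread is the departure of single wells from a fit in which genotype and treatment add up. In the main test the disagreement of the 2 pairs joins it. This spread may be technical, or hold true differences in response between genotypes.

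Biglycan is a small leucine-rich proteoglycan of the extracellular matrix. In its soluble form it is known as a danger signal that engages the innate immune receptors TLR2 and TLR4 with their co-receptor CD14. LPS is the bacterial ligand of TLR4, which it reaches through CD14 and MD-2 (Ly96). TLR4 signals through MyD88 to NF-kB and the inflammatory cytokines, and through TRIF to interferon beta and the interferon-stimulated genes.

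The deposited values are TPM, each gene's length-corrected share of the transcripts in its library. They carry no read totals. The spacing of low values over 3704 genes gave estimates of 17900000 and 14200000 reads for LPS alone and biglycan with LPS in the pair labelled Bgn-/-, and of 17700000 and 20600000 in the wild-type pair. All 19 listed genes of large peritoneal macrophages were above a mean of 1 TPM. Without the acute-phase gene Saa3, they summed to 8472 and 7334 TPM in the pair labelled Bgn-/- and to 6999 and 6720 TPM in the wild-type pair. Markers of other cells were lower: B cell genes summed to between 970.5 and 1242 TPM, erythrocyte and platelet genes to between 1328 and 1937, neutrophil genes to between 599 and 707, mast cell genes to between 141 and 222, and genes of T and NK cells to between 28.1 and 37.2. The neutrophil markers Ngp and Elane were at 0 in all 4 libraries. Bgn itself went against its label. It was listed at 0.758 and 1.18 TPM in the libraries labelled Bgn-/- (LPS alone, then biglycan with LPS) and at 0.330 and 0.327 TPM in wild type, so every statement on genotype below is about the labelled libraries. The transcript of Lum, which encodes the related proteoglycan lumican, was at 0.105 and 0.134 TPM in the libraries labelled Bgn-/- and at 1.40 and 0.718 TPM in wild type. Neither gene reached the mean of 1 TPM required for testing. The biglycan library labelled Bgn-/- also had the lowest value of the 21 libraries in the label field conc.nm, 109.7 against 281.89 for its LPS partner. The wild-type values were 216.03 with biglycan and 191.51 without. The 260/230 ratio in the labels was 2.7 with biglycan and 2.63 without in the pair labelled Bgn-/-. In wild type it was 3.34 with biglycan and 4.91 without. The part of these differences in the results was not tested.

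No gene passed the test. Of 10763 genes tested with limma on log2(TPM + 1), none had an adjusted p under 0.05 (0.0% of genes), and the smallest adjusted p was 0.0874. At an unadjusted p under 0.05, 1323 genes were higher with biglycan (12.3%) and 328 were lower (3.05%). These counts depend on the libraries that give the spread: with all 21, 765 were higher and 164 lower. The split of the reported fit also moved with the scaling of the libraries. After median-of-ratios scaling 674 genes were higher (6.26%) and 854 lower (7.93%). The median difference over all genes was 0.09 as deposited and -0.0063 after scaling. Both biglycan libraries lay above both LPS libraries for 3650 genes (33.9%) and below both for 1061 (9.86%). After scaling, these numbers were 1914 (17.8%) and 2215 (20.6%). The 2 pairs pointed upward together for 5032 genes (46.8%) and downward together for 1702 (15.8%). Across genes, which are not independent and share their libraries, the differences in the 2 pairs had a Pearson r of 0.169. A difference of at least 2-fold was seen for 168 genes in the pair labelled Bgn-/- (1.56%) and for 195 in wild type (1.81%).

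**Figure D1:**
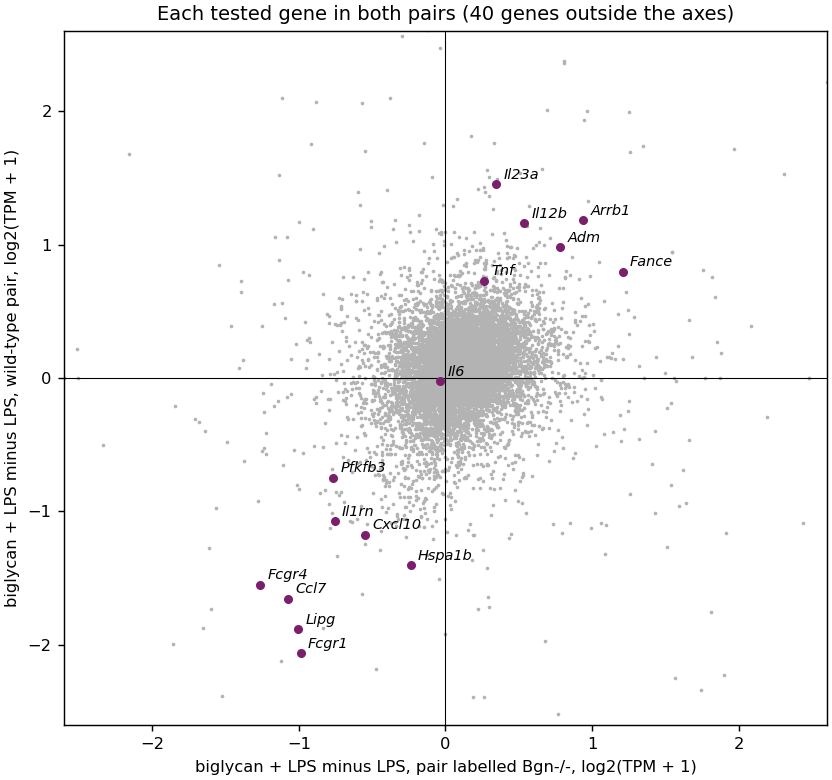
Difference between biglycan with LPS and LPS alone for every tested gene, in log2(TPM + 1), in the pair labelled Bgn-/- (horizontal axis) and in wild type (vertical axis). Each grey point is 1 of 10763 genes, purple points are named genes, and 40 genes lie outside the axes. Fcgr1, Fcgr4, Lipg and Ccl7 sit at the lower left, Arrb1, Adm and Fance at the upper right, and Il6 near the origin.

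Fcgr1 and Fcgr4, genes of activating Fc gamma receptors, were among the genes with the lowest values relative to LPS alone. Fcgr1 encodes CD64, the high-affinity IgG receptor. It was at 46.0 TPM with LPS and 22.7 with biglycan and LPS in the pair labelled Bgn-/-, and at 111 and 25.9 TPM in wild type. Fcgr4, which encodes a receptor for IgG2a and IgG2b, went from 17.4 to 6.68 TPM and from 27.9 to 8.88 TPM in the same order. Fcgr3, the gene of the low-affinity activating receptor, was at 169 and 115 TPM, then at 152 and 114 TPM. In all 3 genes, both biglycan libraries lay below both LPS libraries, as for 9.86% of all genes (20.6% after median-of-ratios scaling). Fcgr1 and Fcgr4 were named for large differences of the same sign in both pairs, which favours such separation. The mean log2 differences were -1.53 ± 0.33 (standard error from limma, adjusted p = 0.169) for Fcgr1, -1.41 ± 0.19 (adjusted p = 0.0874) for Fcgr4 and -0.48 ± 0.10 (adjusted p = 0.149) for Fcgr3. All 3 missed the threshold. In bulk RNA, fewer cells of a type and less RNA per cell cannot be told apart.

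Fcgr4 (GRCm38, chr1:171018920-171029761, plus strand) and Fcgr3 (chr1:171051174-171064935, minus strand) lie close together, and Fcgr1 lies at chr3:96282909-96293969 on the minus strand. The promoters of Fcgr1 and Fcgr4, from 250 bases before to 50 bases after the start, are shown because these 2 receptor genes were lower in both pairs and each window holds a motif read by interferon-activated factors. The sequences are RefSeq's for GRCm38.p6, written 5′ to 3′ on the gene's strand. Capitals mark TTCNNNGAA, the interferon gamma-activated site, in Fcgr1 and GAAANNGAAA, the interferon-stimulated response element, in Fcgr4.
Fcgr1, chr3:96293920-96294219, minus strand: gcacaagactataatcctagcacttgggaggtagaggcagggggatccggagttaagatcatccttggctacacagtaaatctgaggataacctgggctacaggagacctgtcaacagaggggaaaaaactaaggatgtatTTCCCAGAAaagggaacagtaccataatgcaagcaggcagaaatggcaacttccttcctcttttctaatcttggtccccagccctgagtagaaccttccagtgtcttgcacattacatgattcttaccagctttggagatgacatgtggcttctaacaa
Fcgr4, chr1:171018676-171018975, plus strand: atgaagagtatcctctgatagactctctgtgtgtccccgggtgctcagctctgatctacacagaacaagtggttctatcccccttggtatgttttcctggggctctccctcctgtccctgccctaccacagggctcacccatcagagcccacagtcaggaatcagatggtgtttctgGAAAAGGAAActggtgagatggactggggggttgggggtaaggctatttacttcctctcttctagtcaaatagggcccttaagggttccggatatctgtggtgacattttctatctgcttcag
The Fcgr1 match lies 109 to 101 bases before the start and the Fcgr4 match 73 to 64 bases before it. Both motifs were searched on both strands in all 32851 promoter windows of this length. TTCNNNGAA was present in 8.30% of them and GAAANNGAAA in 3.44%. Of 49 listed interferon-stimulated genes, 36 had a window, and GAAANNGAAA was present in 22 of those and TTCNNNGAA in 10. A match describes the letters and does not show a bound site. The 2 windows were chosen with the values and the motifs known, and no window is shown for Fcgr3. Whether either motif has a part in the lower values was not tested.

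Secreted mediators were found on both sides. On the lower side, Ccl7, a chemokine that recruits monocytes, was at 828 TPM with LPS and 393 with biglycan and LPS in the pair labelled Bgn-/-, and at 1380 and 437 TPM in wild type, a mean log2 difference of -1.36 ± 0.31 (limma adjusted p = 0.169). The genes Ccl12 and Ccl2, of the same cluster on chromosome 11, had values in the same order. Ccl12 was at 6.70 and 3.61 TPM and at 12.0 and 4.17 TPM. Ccl2, the major monocyte chemokine, was at 2296 and 1587 TPM and at 3862 and 1727 TPM, a mean of -0.85 ± 0.30. In each of the 3 chemokine genes the 2 biglycan libraries were the lower ones, as for 9.86% of all genes. The rule that named Ccl7 and Ccl12 favours such genes. Il1rn, which encodes the IL-1 receptor antagonist, was at 1801 and 1068 TPM and at 1906 and 906 TPM (-0.91 ± 0.29, adjusted p = 0.231). Lipg, the endothelial lipase gene, was at 16.8 and 7.87 TPM and at 17.8 and 4.10 TPM (-1.44 ± 0.31, adjusted p = 0.169).

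Further genes on the lower side were Glipr2 (-0.96 ± 0.20), Mt2, a metallothionein gene (-0.91 ± 0.49), and Aif1, which encodes the macrophage protein IBA1 (-0.91 ± 0.44). For Mt2 the groups overlapped, since the biglycan library labelled Bgn-/- had 106 TPM and the wild-type LPS library 96.8. The 14 genes with the largest lower means by the naming rule also held 3 processed pseudogenes (Rps13-ps2, Rps12l1 and Dynlt1-ps1), the ribosomal gene copy Rps27rt and the immunoglobulin joining segment Iglj3. Their mean differences reached -3.27 for Iglj3, but estimated read assignment can split near-identical copies, so these values are uncertain. Rps12l1 had 34.1 TPM in the LPS library labelled Bgn-/- and under 0.001 TPM in both wild-type libraries.

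On the higher side were genes of the shared p40 chain and of the IL-23 p19 chain. Il12b, which encodes p40 of IL-12 and IL-23, was at 100 TPM with LPS and 146 with biglycan and LPS in the pair labelled Bgn-/-, and at 83.1 and 187 TPM in wild type (mean log2 difference 0.85 ± 0.25, limma adjusted p = 0.209). Il23a was at 7.91 and 10.3 TPM and at 7.80 and 23.1 TPM (0.90 ± 0.30, adjusted p = 0.233). Adm, the gene of the vasoactive peptide adrenomedullin, was at 142 and 245 TPM and at 105 and 208 TPM (0.88 ± 0.17, adjusted p = 0.143). The biglycan libraries were the higher ones for all 3 genes, as for 33.9% of all genes, and the naming rule favours such genes. Arrb1, which encodes beta-arrestin 1, was at 2.44 and 5.61 TPM and at 1.78 and 5.31 TPM (1.06 ± 0.20, adjusted p = 0.134). Fance, a gene of the Fanconi anaemia DNA repair pathway, was at 1.93 and 5.77 TPM and at 2.17 and 4.50 TPM (1.00 ± 0.14, adjusted p = 0.0874). Rarg, a retinoic acid receptor gene (0.92 ± 0.25), Slc6a12, a betaine transporter gene (0.88 ± 0.23), and Pdgfrb, a growth factor receptor gene (0.85 ± 0.19), completed the group of genes with ordinary protein-coding models. For Slc6a12 the groups overlapped, with 13.4 TPM in the biglycan library labelled Bgn-/- and 13.6 in the wild-type LPS library.

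The other 6 of the 14 leading higher genes were immunoglobulin variable segments: Igkv12-46, Igkv14-100, Ighv10-3, Igkv17-121, Ighv1-72 and Igkv2-109. Their mean log2 differences lay between 0.88 and 1.15, and none was above 11.3 TPM in any of the 4 libraries. Such segments resemble each other and belong to B cells. The summed B cell markers were 1039 TPM with LPS and 970.5 with biglycan in the pair labelled Bgn-/-, and 1011 and 1242 TPM in wild type. The part of B cells in these 6 values was not tested.

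**Figure D2:**
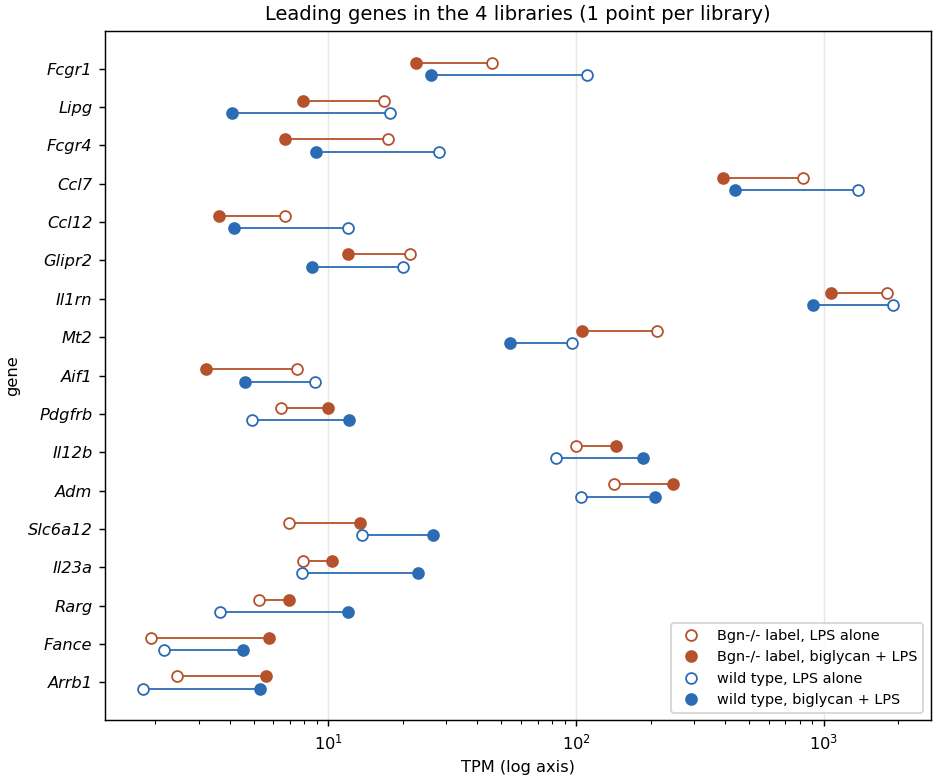
TPM (log axis) of the leading protein-coding genes in the 4 libraries, 1 point per library, with open circles for LPS alone, filled circles for biglycan with LPS, and a line joining each pair. Every one of the 17 genes points the same way in both pairs by the naming rule, with the wild-type line longer for Fcgr1 (111 to 25.9 TPM) than the line labelled Bgn-/- (46.0 to 22.7 TPM).

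Genes of the receptors for biglycan and LPS differed little. Tlr2 was at 593 and 608 TPM in the pair labelled Bgn-/- and at 706 and 608 TPM in wild type, a mean log2 difference of -0.09 ± 0.09. Tlr4 was at 62.3 and 70.4 TPM and at 50.8 and 53.4 TPM (0.12 ± 0.15). Cd14 was at 2246 and 2354 TPM and at 1951 and 2315 TPM (0.16 ± 0.13). Ly96, the gene of MD-2, was at 65.9 and 65.9 TPM and at 55.6 and 54.5 TPM (-0.02 ± 0.10). Among these 4 genes, the groups separated only for Cd14, whose 2 biglycan libraries were the higher ones, as for 33.9% of all genes. Of the 34 listed genes of the biglycan receptors and the TLR pathway, 33 were tested. At an unadjusted p under 0.05, 3 of them were higher and 1 lower (9.09% and 3.03%, near the 12.3% and 3.05% of all genes), and the median difference was 0.10, beside 0.09 over all genes. After median-of-ratios scaling 1 was higher and 3 were lower, beside 6.26% and 7.93% of all genes. Ikbkb, the gene of the NF-kB activating kinase IKK beta, was at 117 and 157 TPM and at 111 and 155 TPM (0.45 ± 0.09, limma adjusted p = 0.149). Irak1, a kinase gene downstream of MyD88, had a mean of 0.25 ± 0.11. The 1 lower gene was Tlr3, which encodes the receptor for double-stranded RNA, at 38.9 and 36.7 TPM and at 58.8 and 29.6 TPM (-0.52 ± 0.22). The group separation of Tlr3 rested on wild type, since the pair labelled Bgn-/- differed by -0.08 on the log2 scale.

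Of 28 tested genes of NF-kB subunits and its feedback inhibitors, 5 were higher and 3 lower at an unadjusted p under 0.05 (17.9% and 10.7%, beside 12.3% and 3.05% of all genes), with a median of 0.06. After median-of-ratios scaling 1 was higher and 6 were lower (beside 6.26% and 7.93% of all genes), with a median of -0.045. Nfkb2, a subunit gene, had a mean of 0.16 ± 0.06 and Nfkb1 a mean of 0.17 ± 0.09. Zfp36, which encodes the cytokine mRNA-destabilising protein tristetraprolin, was at 157 and 120 TPM and at 125 and 103 TPM (-0.34 ± 0.10, limma adjusted p = 0.227). Socs1, the gene of a cytokine signalling inhibitor, was at 38.9 and 31.6 TPM and at 45.1 and 36.5 TPM (-0.30 ± 0.12). Both biglycan libraries lay below both LPS libraries for Zfp36 and Socs1, as for 9.86% of all genes.

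Inflammatory cytokine and chemokine genes had members on both sides. Of 36 listed genes 34 were tested. At an unadjusted p under 0.05, 3 were higher (8.82%, beside 12.3% of all genes) and 6 lower (17.6%, beside 3.05%). Both biglycan libraries lay above both LPS libraries for 11 (32.4%, beside 33.9%) and below both for 10 (29.4%, beside 9.86%), and the median difference was -0.03. After median-of-ratios scaling 2 were higher and 7 lower, beside 6.26% and 7.93% of all genes. After this scaling 6 lay above and 13 below, beside 17.8% and 20.6% of all genes, and the median was -0.14. Tnf was at 3549 and 4268 TPM in the pair labelled Bgn-/- and at 4103 and 6808 TPM in wild type (0.50 ± 0.18, limma adjusted p = 0.251). The neutrophil chemokine genes Cxcl1 and Cxcl2 had means of 0.44 ± 0.32 and 0.34 ± 0.17. Il6 was at 3515 and 3426 TPM and at 3334 and 3279 TPM, a mean of -0.03 ± 0.21. Il1b had 17690 and 17180 TPM and then 16330 and 19350 TPM (0.10 ± 0.33), and Il1a a mean of 0.06 ± 0.15. Thus the values of Il6, Il1b and Il1a overlapped between the groups, while those of Tnf, Cxcl1 and Cxcl2 did not. Nos2, the inducible nitric oxide synthase gene, was at 311 and 197 TPM and at 440 and 208 TPM (-0.87 ± 0.52), and the B cell chemokine gene Cxcl13 at 154 and 74.6 TPM and at 74.8 and 51.0 TPM (-0.79 ± 0.54). Il18 was at 266 and 252 TPM and at 275 and 162 TPM (-0.42 ± 0.17), and Nlrp3, the inflammasome sensor gene, had a mean of 0.24 ± 0.11.

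Interferon-stimulated genes had lower values with biglycan, with a larger median difference in wild type. Of 49 listed genes 48 were tested. None had an adjusted p under 0.05, and 4 were lower and 0 higher at an unadjusted p under 0.05 (8.33%, beside 3.05% of all genes). Both biglycan libraries lay below both LPS libraries for 29 of the 48 (60.4%, beside 9.86% of all genes), and above both for 0. The median difference of the list was -0.22 as deposited, -0.33 after median-of-ratios scaling and -0.21 after quantile normalization. In wild type 46 of the 48 were lower (95.8%, beside 36.4% of all genes), with a median of -0.39 and a range from -1.17 to 0.10. In the pair labelled Bgn-/- 30 were lower (62.5%, beside 32.6%), with a median of -0.05 and a range from -0.55 to 0.31. The median of the members' differences between the pairs was 0.43. No member passed the test of that difference, for which 1 of 10763 genes was called (0.00929%).

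Cxcl10, the interferon-inducible chemokine gene, was at 2930 and 2007 TPM in the pair labelled Bgn-/- and at 3710 and 1644 TPM in wild type (-0.86 ± 0.35, limma adjusted p = 0.286). Isg20, an exonuclease gene, was at 221 and 176 TPM and at 260 and 128 TPM (-0.67 ± 0.24, adjusted p = 0.251). Rsad2, which encodes the antiviral enzyme viperin, was at 1587 and 1318 TPM and at 1983 and 1016 TPM (-0.62 ± 0.40). The RNA-binding antiviral genes Ifit1, Ifit2 and Ifit3 had means of -0.30 ± 0.36, -0.65 ± 0.50 and -0.47 ± 0.54. Ifit2 was at 399 and 327 TPM and at 655 and 322 TPM. The wild-type library with lumican and LPS had 1318 TPM of Cxcl10, 909 of Rsad2 and 288 of Ifit2. With biglycan and LPS these were 1644, 1016 and 322 TPM in wild type. All wild-type differences rest on 1 library with LPS alone, and the part of that library was not tested. Ifnb1, the interferon beta gene, was low, at 1.36 and 1.22 TPM and at 1.89 and 2.31 TPM, with overlapping groups and a mean of 0.05 ± 0.23.

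**Figure D3:**
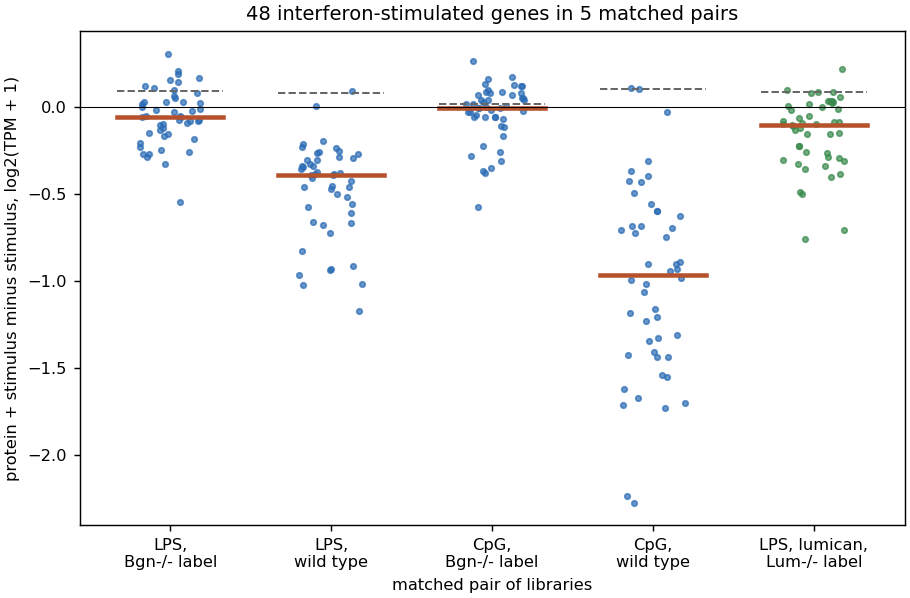
Difference in log2(TPM + 1) between added protein with stimulus and stimulus alone for 48 interferon-stimulated genes in 5 matched pairs of libraries, 1 point per gene, with the list median (bar) and the median of all tested genes (dashed line). The wild-type medians are -0.39 with LPS and -0.96 with CpG, and those labelled Bgn-/- are -0.05 and -0.0011. With CpG alone, Ifit2 was at 76.3 TPM in wild type and at 9.36 TPM in the library labelled Bgn-/-.

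Antigen presentation and co-stimulation genes showed 7 lower and 0 higher members at an unadjusted p under 0.05 (29.2% lower, beside 3.05% of all genes), out of 24 tested. Their median was -0.15 as deposited and -0.26 after scaling, with 10 of 24 below both LPS libraries (41.7%, beside 9.86% of all genes). Psmb10, an immunoproteasome subunit gene, was at 381 and 294 TPM and at 426 and 300 TPM (-0.44 ± 0.09, limma adjusted p = 0.169), and Psmb9, another subunit gene, had a mean of -0.31 ± 0.12. Cd86, the gene of a co-stimulatory ligand for T cells, was at 49.2 and 40.5 TPM and at 54.3 and 36.1 TPM (-0.43 ± 0.12, adjusted p = 0.203). H2-DMb1, which encodes a chaperone of class II peptide loading, had a mean of -0.42 ± 0.16. The class II genes proper were in opposite directions in the pairs. H2-Aa was at 190 and 162 TPM in the pair labelled Bgn-/- and at 185 and 208 TPM in wild type, and Cd74, the invariant chain gene, at 656 and 598 TPM and at 678 and 742 TPM.

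Of 23 tested scavenger and uptake receptor genes, 6 were lower (26.1%, beside 3.05% of all genes) and 1 higher (4.35%, beside 12.3%) at an unadjusted p under 0.05, with a median of -0.09. The 3 Fc receptor genes described above belong to this list. Axl, a receptor gene for the clearance of dying cells, was at 48.6 and 41.1 TPM and at 76.1 and 48.0 TPM (-0.45 ± 0.15). Cd36, the gene of a receptor for oxidised lipids, was the higher member, at 205 and 249 TPM and at 219 and 256 TPM (0.25 ± 0.06, limma adjusted p = 0.193).

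Targets of NRF2, the transcription factor of the antioxidant response, had higher values. Of 18 tested, 10 were higher and 1 lower at an unadjusted p under 0.05 (55.6% higher, beside 12.3% of all genes), and 10 lay above both LPS libraries (55.6%, beside 33.9%). The median was 0.21 as deposited, 0.10 after median-of-ratios scaling and 0.20 after quantile normalization. After median-of-ratios scaling the numbers at an unadjusted p under 0.05 were 2 higher and 1 lower, beside 6.26% and 7.93% of all genes. Me1, which supplies NADPH, was at 23.5 and 31.1 TPM and at 20.5 and 29.2 TPM (0.44 ± 0.10, limma adjusted p = 0.169). Gclc and Gclm, the genes of the 2 subunits of the rate-limiting enzyme of glutathione synthesis, had means of 0.35 ± 0.11 and 0.24 ± 0.10, and the cystine importer gene Slc7a11 a mean of 0.29 ± 0.13. Nfe2l2, the NRF2 gene itself, was at 193 and 225 TPM and at 174 and 202 TPM (0.22 ± 0.07, adjusted p = 0.227). The 2 biglycan libraries were the higher ones for Me1, Gclc, Slc7a11 and Nfe2l2, and overlapped with LPS for Gclm.

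Single genes of metabolism, stress and other lists also differed, and only those of glycolysis are set beside their list here. Pfkfb3, which makes the activator of the glycolytic enzyme phosphofructokinase, was at 122 and 71.1 TPM in the pair labelled Bgn-/- and at 94.1 and 55.7 TPM in wild type (-0.76 ± 0.10, limma adjusted p = 0.0874). The differences of its pairs were -0.76 and -0.75. The list of glycolysis and glucose uptake had a median of 0.04 over 22 genes, with 1 higher and 1 lower at an unadjusted p under 0.05 (4.55% each, beside 12.3% and 3.05% of all genes). After median-of-ratios scaling the list had 1 higher and 5 lower members, beside 6.26% and 7.93% of all genes. Gpi1, a glycolytic isomerase gene, had a mean of 0.34 ± 0.11. Phgdh, the first enzyme of serine synthesis, was at 25.0 and 39.3 TPM and at 22.9 and 41.7 TPM (0.73 ± 0.24). Maff, a small Maf transcription factor gene, was at 33.7 and 45.4 TPM and at 34.1 and 66.2 TPM (0.68 ± 0.22). Ch25h, the cholesterol 25-hydroxylase gene, was at 322 and 185 TPM and at 556 and 288 TPM (-0.87 ± 0.57). Lcn2, which encodes the iron-sequestering protein lipocalin 2, had a mean of -0.57 ± 0.21 and the haptoglobin gene Hp one of -0.32 ± 0.14. Mmp3, a matrix protease gene, was at 115 and 159 TPM and at 104 and 171 TPM (0.59 ± 0.22). The caspase gene Casp8 had a mean of -0.43 ± 0.10. Arg1 was at 2.94 and 1.17 TPM and at 6.82 and 3.31 TPM (-0.86 ± 0.22), and its groups overlapped. Gar1, a gene of telomerase and small nucleolar RNPs, was chosen after its values were seen. It was at 11.1 and 17.8 TPM and at 10.5 and 17.0 TPM (0.64 ± 0.09, adjusted p = 0.0874).

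**Figure D4:**
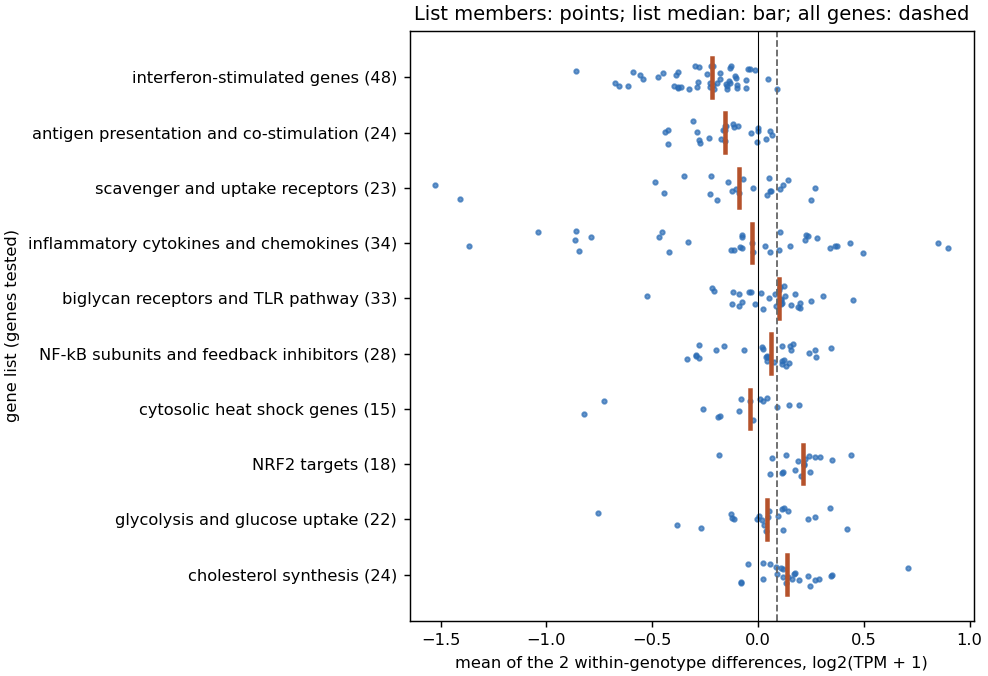
Mean of the 2 within-genotype differences in log2(TPM + 1) for the members of 10 gene lists, 1 point per tested gene, with each list's median (bar) and the median of all 10763 genes (dashed line, 0.09). Interferon-stimulated genes have a median of -0.22 and NRF2 targets one of 0.21.

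The 2 pairs were also compared with each other. In that test 1 of 10763 genes was called and 539 had an unadjusted p under 0.05 (5.01%). The called gene has no proper symbol and is described in the closing section. The heat shock genes Hspa1a and Hspa1b, near-identical copies that share reads, had the smallest p in this test among the named genes. Hspa1a was at 43.8 and 40.1 TPM in the pair labelled Bgn-/- and at 57.2 and 22.2 TPM in wild type. Hspa1b was at 42.7 and 36.0 TPM and at 47.7 and 17.4 TPM. The difference between the pairs was 1.20 ± 0.23 (limma adjusted p = 0.507) for Hspa1a and 1.17 ± 0.25 (adjusted p = 0.522) for Hspa1b, so neither passed. For Fcgr1 the pairs differed by 1.07 ± 0.62, for Fcgr4 by 0.29 ± 0.40 and for Pfkfb3 by -0.02 ± 0.20.

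The same protein was added before CpG, a DNA ligand of TLR9, at 1 µM in 4 other libraries of the same genotypes. No gene was called for the difference between the biglycan effect under LPS and under CpG. Its smallest limma adjusted p was 0.715, and 587 genes had an unadjusted p under 0.05 (5.45%). Fcgr1 was at 14.02 TPM with CpG and 11.5 with biglycan and CpG in the pair labelled Bgn-/-, and at 44.4 and 11.2 TPM in wild type. Fcgr4 was at 12.3 and 7.30 TPM and at 17.5 and 6.26 TPM. Thus both receptor genes were lower with biglycan in every pair of both stimuli, and the effect under LPS minus that under CpG was -0.44 ± 0.50 for Fcgr1 and -0.39 ± 0.27 for Fcgr4. Il12b was at 2.24 and 2.45 TPM and at 4.73 and 6.15 TPM with CpG, a difference between the effects of 0.64 ± 0.29 (adjusted p = 0.889). Fance had means of 1.00 with LPS and -0.13 with CpG, a difference of 1.13 ± 0.19 (adjusted p = 0.715). The interferon-stimulated genes had a median of -0.96 in the wild-type CpG pair, where 46 of 48 were lower (95.8%, beside 29.0% of all genes). In the CpG pair labelled Bgn-/- the median was -0.0011 and 25 were lower (52.1%, beside 43.6%). The levels with CpG alone differed between the genotypes. In untreated cells and with CpG alone, Ifit2 was at 8.26 and 9.36 TPM in the libraries labelled Bgn-/-, and at 10.0 and 76.3 in wild type. Rsad2 was at 14.41 and 15.65 TPM, then 14.51 and 74.58, and Cxcl10 at 7.35 and 13.6, then 9.48 and 62.1. The part of these levels in the 2 medians was not tested.

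Lumican, added before LPS to cells labelled Lum-/-, gave a further pair that shares no library with those above. Lum went against this label: it was at 14.1 TPM with LPS and 12.0 with lumican and LPS. Bgn was at 0.032 and 0 TPM in the same order. The label is kept as given. The 260/230 ratio in the labels was 3.36 with LPS and 0.2 with lumican and LPS, and its part was not tested. No gene was called for the difference between the biglycan and the lumican effect, and 483 genes had an unadjusted p under 0.05 (4.49%). This test was added after the data had been seen. Fcgr1 was at 179 TPM with LPS and 52.2 with lumican and LPS, Fcgr4 at 49.5 and 14.8, Ccl7 at 2162 and 780, and Il12b at 75.5 and 217 TPM. The biglycan effect minus the lumican effect was 0.23 ± 0.60 for Fcgr1, 0.27 ± 0.34 for Fcgr4, 0.10 ± 0.52 for Ccl7 and -0.66 ± 0.32 for Il12b. Of the 18 NRF2 targets, 17 were higher with lumican (94.4%, beside 64.7% of all genes), and of the 48 interferon-stimulated genes 34 were lower (70.8%, beside 35.0%). Wild-type cells with lumican and LPS share their LPS library with the wild-type biglycan pair. They had 28.2 TPM of Fcgr1, 7.54 of Fcgr4, 411 of Ccl7 and 147 of Il12b. With biglycan and LPS the wild-type values were 25.9, 8.88, 437 and 187 TPM.

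Genes were last grouped by LPS alone against lumican alone in the libraries labelled Lum-/-, which are in neither biglycan pair. This contrast adds LPS and also takes lumican away, and the part of lumican in it was not tested. The label of these libraries is kept as given, although Lum was at 14.1 TPM with LPS alone and 1.17 with lumican alone. The 774 genes that were at least 2-fold higher with LPS there had a median biglycan difference of -0.08, with -0.02 in the pair labelled Bgn-/- and -0.14 in wild type. The 4197 genes that were at least 2-fold lower with LPS had a median of 0.14, with 0.14 in each pair. After median-of-ratios scaling these medians were -0.19 and 0.05. Across 10763 genes, which are not independent, the biglycan difference and this contrast had a Pearson r of -0.224 and a Spearman rho of -0.254. The spread was widest among the 56 genes that were at least 16-fold higher with LPS, whose quartiles were -0.55 and 0.17. Il12b, Tnf and Adm are among the LPS-induced genes that were higher with biglycan.

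**Figure D5:**
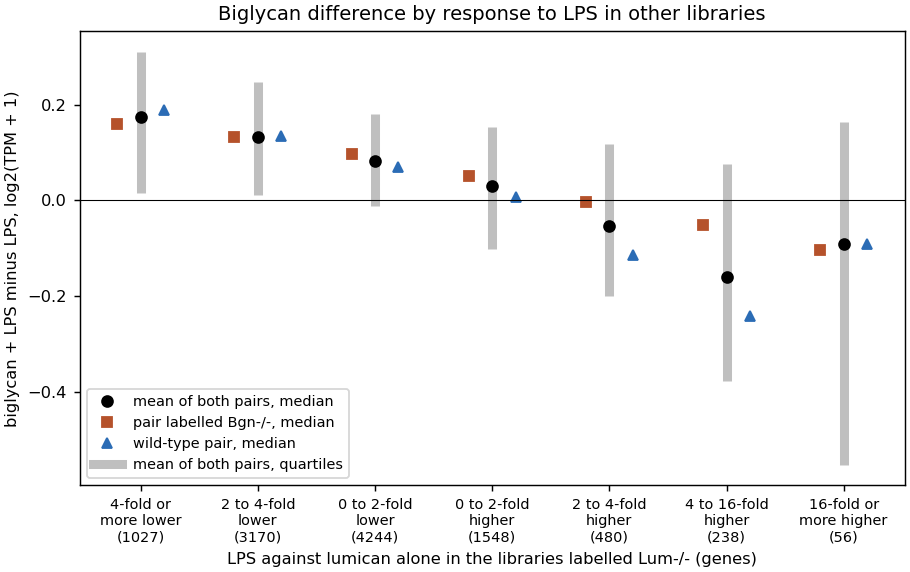
Difference between biglycan with LPS and LPS alone, in log2(TPM + 1), for groups of genes. The groups are by LPS alone against lumican alone in the libraries labelled Lum-/- (horizontal axis, gene numbers in brackets). Black circles are medians of the mean of both pairs with quartiles as grey bars, squares are medians in the pair labelled Bgn-/- and triangles in wild type. The black medians go from 0.17 in the genes lowest with LPS to -0.16 in those 4 to 16-fold higher, and the 56 genes at 16-fold or more are at -0.09.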

How the data were processed

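RNA was sequenced from 21 wells of CD11b+ peritoneal cells (stranded TruSeq kit, per the labels' protocols). The submitters' processing notes name bcl2fastq 1.8.4, kallisto 0.44.0 and the build GRCm38. The deposited TPM values, which the authors normalized within each library, are given per transcript. They are estimated shares, so a gene's value moves when abundant genes move. The authors' column of row sums, a signal total over all libraries, was not used. Here, 89562 transcripts were summed to 23545 genes by the table's own names or, for 5424 transcripts without one, by transcript ID in GENCODE vM21, and 1350 transcripts (6050.0 to 6763.3 TPM in the 4 libraries) were left out. The 10763 genes that averaged 1 TPM or more over the 4 libraries were transformed to log2(TPM + 1) and fitted in limma 3.58.1 (R 4.3.3). That scale understates the change of low genes. The functions lmFit and eBayes with a trend were used. Tests were two-sided, with Benjamini-Hochberg adjustment at 0.05. The fit held 19 libraries: the 4 compared had their own terms (a level per genotype and 1 biglycan effect), and 15 others gave the spread through additive genotype and treatment terms, with 6 residual degrees of freedom. Left out were 2 libraries, labelled untreated Lum-/- and Bgn-/- with biglycan alone, since an earlier look at these data could not tell them apart beyond counting noise. They also had the lowest estimated read numbers, 2300000 and 2400000. Differences between pairs, stimuli and proteins used the same fit with 5, 4 and 5 residual degrees of freedom. Read numbers were estimated from the spacing of low values in genes with 1 transcript of at least 1000 bases, for an assumed fragment length of 200 bases. The fit was run on data simulated from its own model with independent noise, which cannot show whether its spread holds for single wells.

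Always named were Bgn, Lum, Tlr2, Tlr4, Cd14 and Ly96. No gene was called in the main test, so the 14 largest mean differences each way with the same sign in both pairs and at least 5 TPM in the higher group mean were named, and from each list any of its first 4 measured members and of the 4 with the largest absolute mean difference. Gene models without a proper symbol were counted only. The comparison and the 38 gene lists were chosen with earlier results of these data known, so list counts are descriptions. Alternatives were other pseudocounts, filters, scalings, gene summaries and sets of libraries, and leaving out either pair.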

Additional observations from a re-analysis of the deposited data

Results flagged for a closer look

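Gm42533, a processed pseudogene without a proper symbol (GRCm38, chr5:135896330-135896486, minus strand), was named after its values were seen, because it was the 1 gene whose biglycan difference differed between the 2 pairs by the test. It was listed at 0 TPM with LPS and 7.72 with biglycan and LPS in the pair labelled Bgn-/-, and at 6.92 TPM and then 0 in wild type. The pairs differed by 6.11 ± 0.41 on the log2 scale (limma adjusted p = 0.00208). It was at 0 in all 4 libraries of the CpG pairs, and at 11.2 and 3.64 TPM in the lumican pair labelled Lum-/-. With a mean filter of 5 TPM it was not tested. With the spread from all 21 libraries no gene was called for this difference, and the smallest limma adjusted p was 0.329. As for the other pseudogenes, estimated read assignment can split near-identical copies, so its values are uncertain.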

How the results depend on the processing

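The number of genes called for biglycan with LPS against LPS alone was 0 in the reported fit and under pseudocount 5, a mean of at least 5 TPM, median-of-ratios scaling, quantile normalization, robust eBayes, the spread from all 21 or from 18 libraries and the additive fit over 21 libraries. It was 1 with pseudocount 0.1, 6 without a filter, 2 with the most abundant transcript per gene and 5 with only the 4 libraries. The additive fit over the 7 LPS libraries called 11, 3 higher and 8 lower: Adm was higher (0.89, adjusted p = 0.0365), and Fcgr4 (-1.40), Pfkfb3 (-0.75), Ch25h (-0.85), Mt2 (-0.90) and Il1rn (-0.91) were lower, with adjusted p from 0.0365 to 0.0439. Leaving out 1 pair gave 4 to 8 calls, 4 without the pair labelled Bgn-/- and 8 without the wild-type pair. The lone pair's libraries were then assumed to vary like the others. For the difference between the pairs, 1 gene was called in the reported fit, 3 with pseudocount 0.1, 8 with pseudocount 5, 0 with at least 5 TPM, 270 without a filter, 3 after quantile normalization, 0 with the spread from all 21 libraries and 2 with 18 libraries. For biglycan under LPS against under CpG it was 0 in every setting run. For biglycan against lumican it was 2 without a filter and 0 in the other settings run. The cause of these moves was not tested.

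Of 87 named genes tested, 78 kept their sign in all 15 alternatives that gave them a value. No sign could turn under the other filters, robust eBayes, the other spreads or only the 4 libraries, which leave the estimate unchanged. Leaving out either pair could not turn the leading genes, which were named for the same sign in both pairs. The count is therefore a weak check. None of the named genes that turned had passed the test. Ifit1, at -0.30 ± 0.36 in the reported fit, had the largest reported difference among them. Without the wild-type pair and without the pair labelled Bgn-/-, Tlr2 was 0.034 and -0.22, Il1b -0.042 and 0.24, Ifnb1 -0.088 and 0.19, H2-Aa -0.23 and 0.17, and Cd74 -0.13 and 0.13. After median-of-ratios scaling, Il1b was -0.0070, Il1a -0.051 and Ifnb1 -0.017. After quantile normalization, Il6 was 0.019, Ifnb1 -0.14 and Cd74 0.024. In the additive fit over 21 libraries, Ly96 was 0.061, Il6 0.092 and Ifit1 0.048, and in that over 7 LPS libraries Il6 was 0.0041. With the most abundant transcript, Cd74 was 0.0094. No further paired analysis was possible because each group has 1 library per genotype and the genotype is already the pair. TPM values hold no read totals, so low genes carry an unknown counting error.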

Other observations

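Cholesterol synthesis genes had a median difference of 0.14 over 24 tested members, with 13 higher and 2 lower in both pairs (54.2% and 8.33%, beside 46.8% and 15.8% of all genes). It was 0.032 after median-of-ratios scaling and 0.065 after quantile normalization. As deposited, the median was 0.27 in wild type and 0.05 in the pair labelled Bgn-/-. Lss, which encodes lanosterol synthase, was at 5.67 TPM with LPS and 11.9 with biglycan and LPS in the pair labelled Bgn-/-, and at 6.16 and 8.90 TPM in wild type (0.71 ± 0.18, limma adjusted p = 0.193). Mvd, an enzyme gene of the mevalonate pathway, and Stard4, a sterol carrier gene, had means of 0.34 ± 0.16 and 0.35 ± 0.19.

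Large peritoneal macrophage genes had a median of -0.22 over 19 tested members, and 10 of them were below both LPS libraries (52.6%, beside 9.86% of all genes). At an unadjusted p under 0.05, 0 were lower and 1 was higher (5.26%), beside 3.05% and 12.3% of all genes. Cytosolic ribosomal protein genes had a median of 0.08, close to the 0.09 of all genes, with 22 of 36 higher in both pairs (61.1%, beside 46.8% of all genes). Mitochondrially encoded genes summed to 25390 and 23480 TPM in the pair labelled Bgn-/- and to 23620 and 22090 TPM in wild type.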
